A study of Homo sapiens with 24 samples.

Results

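Glycolysis splits glucose into pyruvate, and cells that grow fast convert much of that pyruvate to lactate. Most of the genes described here are targets of the hypoxia-inducible factors (HIF), transcription factors that accumulate when oxygen is low and bind DNA at a short core motif called the hypoxia response element. PI3K signaling promotes glycolysis and HIF activity also when oxygen is plentiful, and the study describes AEZS-136 as a dual inhibitor of this kinase and ERK. The 10 genes were chosen by name, with earlier results of these data known, each with 1 probe of the 47323 on the array. They were the glucose transporter SLC2A3 (GLUT3, probe ILMN_1775708), the glycolytic enzymes HK2 (ILMN_1723486), ALDOC (ILMN_1755974), PGK1 (ILMN_1755749), ENO2 (ILMN_1765796) and LDHA (ILMN_1807106), the secreted factors VEGFA (ILMN_1803882) and ADM (ILMN_1708934), the mitochondrial protein BNIP3 (ILMN_1724658) and the stress-inducible protein NDRG1 (ILMN_1809931).

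Expression was measured on 24 Illumina arrays in 4 human cell lines derived from Hodgkin lymphoma (HL). Cells of each line were grown in culture and exposed for 24 hours to 10 μM AEZS-136 or, as controls, to vehicle, with 3 arrays per line and treatment. The study describes SUP-HD1 and L-540 as sensitive to death by AEZS-136 and L-428 and KM-H2 as resistant to it, so each class was 2 lines and each line is a single established culture. It reports that in the first hours at 10 μM, ERK1/2 phosphorylation fell in the sensitive lines but rose, to differing degrees, in the resistant ones. Phosphorylation of PI3K and of targets such as AKT was reported as inhibited in all 4 lines. The labels number the replicates but do not say whether they were separate cultures. A legend of the study, on selected genes at 24 hours by PCR and microarray, describes each bar as 3 independent experiments. The p-values measure the spread between arrays, which may be technical if cultures were shared. Since RNA came from whole cultures, fewer cells expressing a gene and less RNA per cell cannot be told apart.

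Of the Hodgkin cell markers, FSCN1, TRAF1 and IRF4 were detected on all 6 arrays of every line, whereas the probe for TNFRSF8 (CD30) was detected on 6 arrays of L-540 and on 0 arrays of the other lines. CCL17, the remaining Hodgkin marker, was detected on 6 arrays of SUP-HD1 and of L-428, 3 of KM-H2 and 0 of L-540. Among markers of other cell types, CD3D, CD14 and COL1A1 were detected on all 6 arrays of KM-H2. CD2 was detected on 6 of each sensitive line and CSF1R on 6 of every line but L-428, where it was detected on 1. Others on these lists were seen on fewer arrays of the same lines, such as CD14 on 3 of L-540. KM-H2 had CD3E, CD2, LYZ, COL1A2 and DCN on 0 arrays and CD3G on 2. CD3D, CD3E and CD3G were detected on 0 arrays of the sensitive lines. In the B lineage list, CD79A was detected on 5 arrays each of L-540 and L-428, 6 of SUP-HD1 and 3 of KM-H2. CD79B was detected on 6 arrays of L-428, 1 of KM-H2 and 0 of the sensitive lines. MS4A1 was detected on at most 1 array of any line. The part of these markers in the results was not tested. The mean signal of an array lay between 297.4 and 360.9 on 23 arrays and was 255.6 on L-428 AEZS-136 replicate 3. Values for L-428 are therefore also given without that array where it changes a call. Detection meant a detection p under 0.01, and tests were run on the 20027 probes that reached it on 3 or more arrays. Levels below are log2 signals after quantile normalization, and responses are log2 fold changes of AEZS-136 over control from limma. The criteria for a change were an adjusted p under 0.05, over all tested probes, together with a log2 fold change of at least 0.4 in either direction.

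Of the 10 genes, 8 were tested. VEGFA was detected on 2 of 24 arrays and ADM on 1, so neither was tested. SLC2A3, HK2, ALDOC, PGK1, ENO2 and LDHA were detected on all 24 arrays, BNIP3 on 19 and NDRG1 on 17.

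The upstream regions of the 3 enzymes that fell in at least 2 lines are shown first, with that of ENO2, which met the criteria in no line. The letters ACGTG and GCGTG, which form the usual core of a hypoxia response element, were searched on both strands in the 250 bases before each annotated start in RefSeq (GRCh38.p14). Matches that overlap, as on both strands of CACGTG, were merged. ACGTG was found in 18.5% and GCGTG in 32.2% of all 35116 such windows, and 43.2% held at least 1 of them. Windows were found for 7 of the 10 genes, 9 windows in all, and each of these genes had at least 1 match. LDHA and HK2 each had 2 annotated starts, and the window with more matches is shown for each. Capitals mark the matched letters.
LDHA, chr11:18394313-18394562, plus strand: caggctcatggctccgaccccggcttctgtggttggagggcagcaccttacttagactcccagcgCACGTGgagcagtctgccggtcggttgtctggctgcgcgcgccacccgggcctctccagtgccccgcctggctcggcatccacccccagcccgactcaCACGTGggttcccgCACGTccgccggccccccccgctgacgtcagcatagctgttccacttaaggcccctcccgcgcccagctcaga
HK2, chr2:74834920-74835169, plus strand: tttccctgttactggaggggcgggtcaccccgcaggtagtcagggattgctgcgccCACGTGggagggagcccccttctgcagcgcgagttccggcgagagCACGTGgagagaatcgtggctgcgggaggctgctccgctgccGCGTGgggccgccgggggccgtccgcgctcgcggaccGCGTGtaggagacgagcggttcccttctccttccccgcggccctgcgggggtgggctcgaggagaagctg
PGK1, chrX:78103998-78104247, plus strand: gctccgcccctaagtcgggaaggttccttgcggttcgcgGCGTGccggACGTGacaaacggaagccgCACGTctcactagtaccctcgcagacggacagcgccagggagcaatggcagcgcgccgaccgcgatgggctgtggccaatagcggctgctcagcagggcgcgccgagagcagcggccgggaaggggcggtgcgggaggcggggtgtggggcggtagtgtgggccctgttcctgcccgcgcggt
ENO2, chr12:6914330-6914579, plus strand: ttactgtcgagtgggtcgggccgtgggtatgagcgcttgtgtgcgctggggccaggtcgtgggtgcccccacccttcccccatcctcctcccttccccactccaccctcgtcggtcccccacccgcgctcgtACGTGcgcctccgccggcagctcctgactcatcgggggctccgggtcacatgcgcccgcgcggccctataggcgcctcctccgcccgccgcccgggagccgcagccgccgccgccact

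The LDHA window held 3 matches, which started 185, 87 and 73 bases before the annotated start, 2 of them in the palindrome CACGTG. The HK2 window shown had 4 matches, that of PGK1 3 and that of ENO2 1, which started 118 bases before its start. The windows not shown held 1 match for LDHA, a GCGTG, and 3 for HK2. Among the genes not shown, BNIP3 had 5 matches, ALDOC 4 and ADM 1. A match describes these letters only, and genes that fell and a gene that did not meet the criteria both held one.

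Before the drug, the 4 lines differed most in BNIP3, ALDOC and SLC2A3 and least in HK2 and LDHA. Each of the 6 genes detected on every array differed among the controls of the lines (limma F test, adjusted p between 6.7e-21 and 0.00039), and 62% of all tested probes did, so a difference alone does not set them apart. BNIP3 and NDRG1 also passed this test, but they entered it through the lines where they are high, since BNIP3 was detected on 0 of 3 L-540 controls and NDRG1 on 1 of 3 L-428 controls. The range of the 4 control means on the log2 scale was 2.94 for ALDOC, 2.07 for SLC2A3, 1.58 for ENO2, 0.92 for PGK1, 0.50 for LDHA and 0.49 for HK2. It was at least 3.07 for BNIP3, and for NDRG1 it was 1.04, with the lowest mean near the detection limit.

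**Figure D1:**
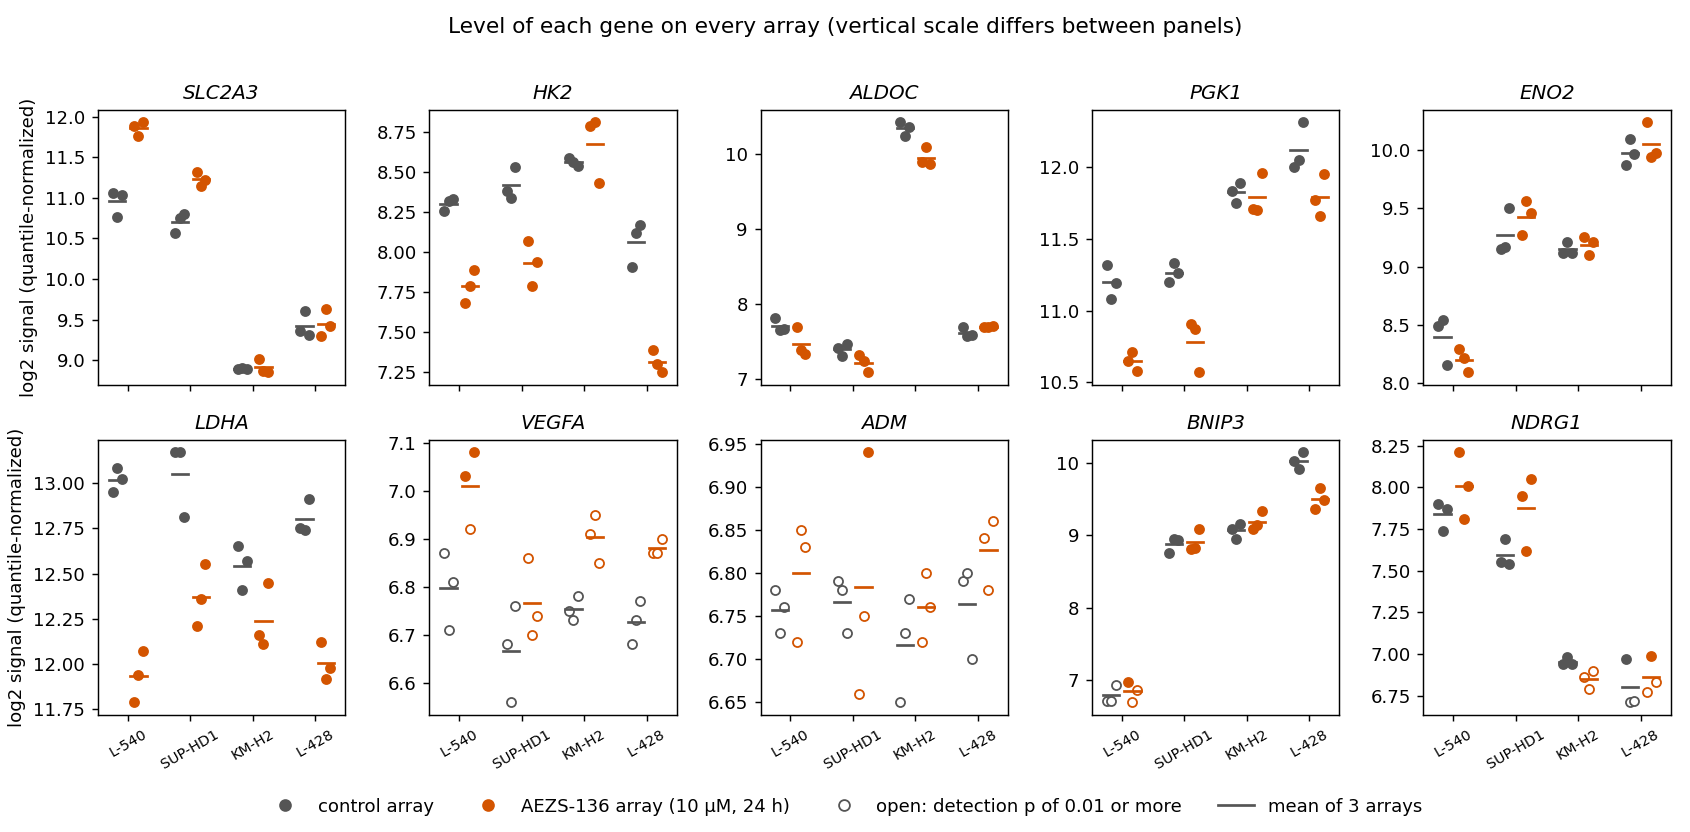
Log2 signal (quantile-normalized, vertical axis, scale differing between panels) of each gene in 4 HL cell lines (horizontal axis), with 1 point per array, bars for the mean of 3 arrays, gray for control and orange for AEZS-136 at 10 μM for 24 hours, and open points for arrays with a detection p of 0.01 or more. ALDOC control arrays lay between 10.24 and 10.42 in KM-H2 and no higher than 7.81 elsewhere, and SLC2A3 rose in L-540 and SUP-HD1 only.

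SLC2A3, which carries glucose into the cell, was highest in the sensitive lines. L-540 had a control mean of 10.96, SUP-HD1 of 10.71, L-428 of 9.42 and KM-H2 of 8.89. L-540 and SUP-HD1 did not meet the criteria for a difference (-0.25, SE 0.09), and all other pairs of lines did, with L-540 4.19-fold above KM-H2.

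With AEZS-136, SLC2A3 rose in both sensitive lines. In L-540 the controls read 11.06, 10.77 and 11.04 and the AEZS-136 arrays 11.88, 11.76 and 11.93. Every treated array was above every control, and the level rose 1.87-fold (log2 0.90, SE 0.09, adjusted p = 1.5e-08, limma). In SUP-HD1 the controls read 10.57, 10.75 and 10.80 and the treated arrays 11.32, 11.15 and 11.22, a 1.44-fold rise without overlap (0.52, SE 0.09, adjusted p = 0.00011).

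In the resistant lines the 2 groups of SLC2A3 values overlapped. KM-H2 controls read 8.89, 8.90 and 8.89 and treated arrays 9.01, 8.87 and 8.85, with a log2 fold change of 0.01 (95% interval -0.18 to 0.21). L-428 controls read 9.36, 9.60 and 9.31 and treated arrays 9.30, 9.63 and 9.42, with a log2 fold change of 0.03 (-0.16 to 0.22). Both intervals lie within the threshold of 0.4. SLC2A3 was the only one of the 8 tested genes whose mean response differed between the classes by the criteria (resistant minus sensitive -0.69, SE 0.09, adjusted p = 6.5e-06), against 6.74% of all tested probes. It was also the only one that rose in any line. With only 2 lines per class, the class and the identity of the lines cannot be told apart.

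Another glucose transporter, SLC2A1 (GLUT1), moved the opposite way in the sensitive lines. It was singled out after its values were seen. Its L-540 log2 fold change was -0.54 (SE 0.08, adjusted p = 9.3e-06, limma) and that of SUP-HD1 -0.42 (SE 0.08, adjusted p = 0.00034). L-428 gave -0.25 and KM-H2 -0.21, neither of which met the criteria.

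HK2 encodes hexokinase 2, which phosphorylates glucose in the first step of glycolysis, and fell in every line but KM-H2. In L-540 the controls read 8.26, 8.32 and 8.33 and the AEZS-136 arrays 7.68, 7.79 and 7.89. SUP-HD1 controls read 8.38, 8.34 and 8.53 and treated arrays 8.07, 7.79 and 7.94. L-428 controls read 7.91, 8.12 and 8.17 and treated arrays 7.39, 7.30 and 7.25. In these 3 lines every treated array was below every control. The fall was 1.69-fold in L-428 (log2 -0.75, SE 0.09, adjusted p = 6.4e-07, limma), 1.43-fold for L-540 (-0.52, SE 0.09, adjusted p = 6.2e-05) and 1.39-fold in SUP-HD1 (-0.48, SE 0.09, adjusted p = 3e-04).

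KM-H2 differed from the other lines in HK2 with the chosen probe. Its controls read 8.59, 8.56 and 8.54 and its treated arrays 8.79, 8.81 and 8.43, which overlapped (log2 fold change 0.11, 95% interval -0.08 to 0.30). The response of KM-H2 was higher than that of L-540 by 0.63 (adjusted p = 0.00094), than that of SUP-HD1 by 0.59 (adjusted p = 0.003) and the response of L-428 minus that of KM-H2 was -0.87 (adjusted p = 5.5e-05). A second, dimmer probe of HK2 gave -0.19 in L-428, 0.18 in KM-H2, -0.31 in SUP-HD1 and -0.16 in L-540, and none of these met the criteria. With that probe the response of KM-H2 was higher than that of SUP-HD1 by 0.50 (adjusted p = 0.016, limma), which met the criteria. Its excess over L-540 (0.34, adjusted p = 0.086) did not, nor did L-428 minus KM-H2 (-0.37, adjusted p = 0.085). Normexp background correction gave larger falls for the first probe, at -1.33 in L-428, -0.78 in L-540 and -0.69 in SUP-HD1. For the second probe it gave -0.60 in SUP-HD1, which then met the criteria, and -0.44 in L-428, which did not.

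ALDOC, the aldolase isoform best known from brain, was high in KM-H2. KM-H2 controls read 10.42, 10.24 and 10.36, against 7.81, 7.65 and 7.67 in L-540, 7.42, 7.31 and 7.47 in SUP-HD1 and 7.69, 7.57 and 7.59 in L-428. The KM-H2 level was 6.19-fold that of L-540, 7.68-fold that of SUP-HD1 and 6.62-fold that of L-428, and no other pair of lines met the criteria.

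After AEZS-136, ALDOC met the criteria in no line, but several alternatives placed it past them. KM-H2 treated arrays read 9.89, 10.09 and 9.87, all below the controls, but the log2 fold change of -0.39 (SE 0.09, adjusted p = 0.0017) was just under the threshold. Without KM-H2 control replicate 2 it was -0.44, and without AEZS-136 replicate 2 it was -0.46, both past it. It was -0.41 with quantile normalization within each line and -0.42 with the deposited value table, also past it. The L-540 value was -0.46 and met the criteria with normexp. The treated arrays read 7.69, 7.39 and 7.33 in L-540 (-0.24), 7.32, 7.24 and 7.09 in SUP-HD1 (-0.19) and 7.70, 7.69 and 7.71 in L-428 (0.09). The responses of L-428 and KM-H2 differed from each other by 0.48 (SE 0.12, adjusted p = 0.011).

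PGK1, which makes ATP in the pay-off phase of glycolysis, fell in both sensitive lines. L-540 controls read 11.32, 11.08 and 11.19 and treated arrays 10.65, 10.71 and 10.58, a 1.46-fold fall (log2 -0.55, SE 0.10, adjusted p = 5.9e-05, limma). SUP-HD1 controls read 11.20, 11.33 and 11.26 and treated arrays 10.91, 10.87 and 10.57, a 1.40-fold fall (-0.48, SE 0.10, adjusted p = 0.00052). Neither line showed overlap, but without SUP-HD1 AEZS-136 replicate 3 the value there was -0.37 and no longer met the threshold.

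The resistant lines had the higher PGK1 control levels, 12.12 in L-428 and 11.82 in KM-H2 against 11.20 in L-540 and 11.26 in SUP-HD1. KM-H2 controls read 11.83, 11.75 and 11.89 and treated arrays 11.71, 11.70 and 11.96, which overlapped (-0.03, 95% interval -0.23 to 0.17). L-428 controls read 12, 12.05 and 12.31 and treated arrays 11.77, 11.66 and 11.95, all below the controls, with a log2 fold change of -0.33 (adjusted p = 0.014) that did not reach the threshold. It was -0.40 and counted as changed without L-428 AEZS-136 replicate 3, the array of low mean signal.

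A second probe of PGK1 gave a different pattern across the lines. It fell in all 4, with log2 fold changes of -0.93 in L-428, -0.89 in SUP-HD1, -0.63 in L-540 and -0.65 in KM-H2 (adjusted p between 1.3e-07 and 4e-05). In KM-H2 it read 10.05, 9.99 and 10.02 in the controls and 9.30, 9.15 and 9.66 after AEZS-136, without overlap. The 2 probes thus differ on whether PGK1 changed in KM-H2 and L-428, and the differences of KM-H2 from L-540 (0.52) and SUP-HD1 (0.45) seen with the first probe rest on that probe.

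ENO2, the enolase isoform best known from neurons, did not meet the criteria in any line, and treated and control arrays overlapped in all 4. L-540 controls read 8.49, 8.54 and 8.15 and treated arrays 8.29, 8.21 and 8.09 (log2 fold change -0.20, 95% interval -0.42 to 0.02). SUP-HD1 read 9.15, 9.17 and 9.50 and then 9.27, 9.56 and 9.46 (0.16, -0.06 to 0.38). KM-H2 read 9.12, 9.21 and 9.12 and then 9.25, 9.10 and 9.21 (0.04, -0.18 to 0.25), and L-428 read 9.87, 10.10 and 9.97 and then 10.24, 9.94 and 9.98 (0.07, -0.15 to 0.29). The lines differed in the level itself. The control mean was 3-fold higher in L-428 than in L-540, and KM-H2 and SUP-HD1 lay between and did not differ from each other by the criteria.

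LDHA, which reduces pyruvate to lactate, had the largest response of the 8 tested genes without background correction, whereas with normexp that of HK2 in L-428 was larger. L-540 controls read 12.95, 13.08 and 13.02 and treated arrays 11.79, 11.94 and 12.07, a 2.12-fold fall (log2 -1.08, SE 0.11, adjusted p = 6.5e-09, limma). SUP-HD1 controls read 13.17, 13.17 and 12.81 and treated arrays 12.21, 12.36 and 12.55, a 1.60-fold fall (-0.67, SE 0.11, adjusted p = 2.7e-05). L-428 controls read 12.75, 12.74 and 12.91 and treated arrays 12.12, 11.92 and 11.98, a 1.73-fold fall (-0.79, SE 0.11, adjusted p = 2.4e-06). In these 3 lines the groups did not overlap.

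KM-H2 controls of LDHA read 12.65, 12.41 and 12.57 and treated arrays 12.16, 12.11 and 12.45, which overlapped at 1 array. The log2 fold change of -0.31 (SE 0.11, adjusted p = 0.046) was under the threshold, and was -0.41 and past it without KM-H2 AEZS-136 replicate 3. The fall in L-540 was larger than in KM-H2 by 0.78 (adjusted p = 0.00047) and that in L-428 by 0.49 (adjusted p = 0.037), while SUP-HD1 and KM-H2 differed by 0.37 (adjusted p = 0.12). A second LDHA probe gave -0.99 in L-540, -0.77 in L-428, -0.66 in SUP-HD1 and -0.30 in KM-H2, with the same 3 lines meeting the criteria. With that probe, however, the L-428 and KM-H2 responses differed by 0.47 and no longer met them (adjusted p = 0.055). The dimmest LDHA probe, detected on 11 arrays, gave -0.33 in L-540, -0.25 in SUP-HD1, -0.08 in L-428 and -0.02 in KM-H2 and met them in no line. With normexp background correction the dimmest probe gave -0.98 in L-540 and -0.72 in SUP-HD1, and both met the criteria.

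**Figure D2:**
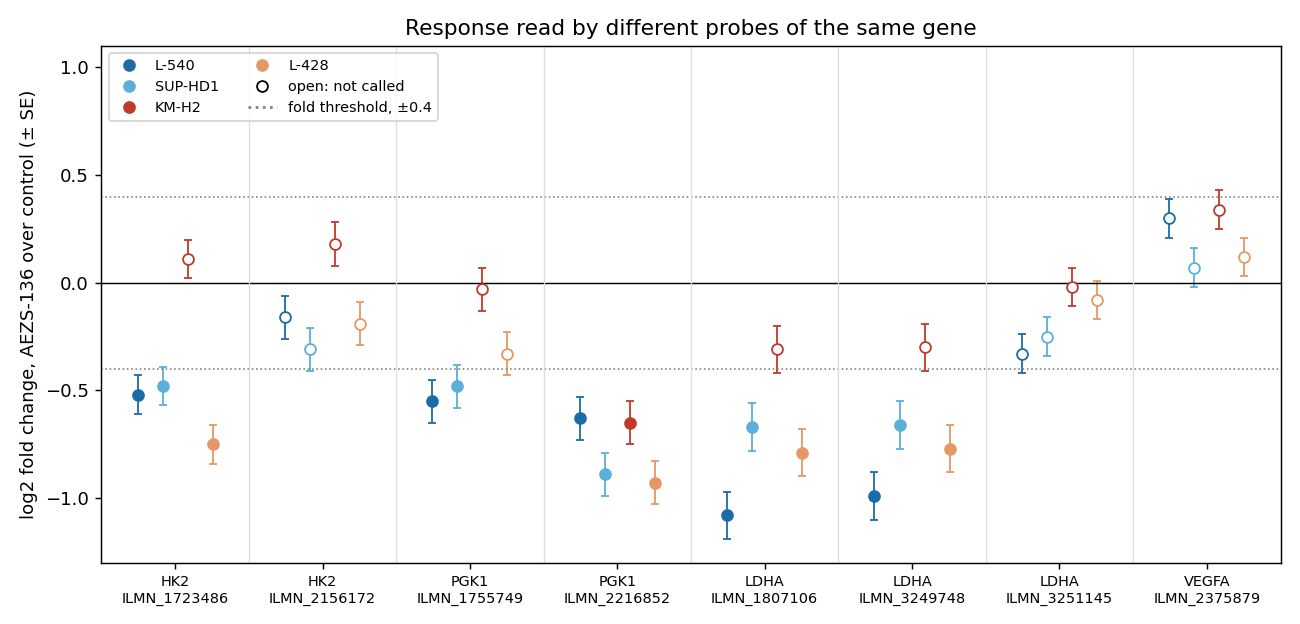
Log2 fold change of AEZS-136 over control (vertical axis, bars for SE) for each tested probe of HK2, PGK1, LDHA and VEGFA (horizontal axis), colored by cell line, with filled points for values that met the criteria and dotted lines at 0.4 and -0.4. The 2 bright LDHA probes gave like values in each line, whereas the second PGK1 probe gave -0.65 in KM-H2 where the first gave -0.03.

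VEGFA, the main growth factor for blood vessels, was at background with the chosen probe, which read between 6.56 and 7.08 on all arrays. Its 2 detected arrays were both L-540 exposed to AEZS-136, where the 3 treated arrays read 7.03, 6.92 and 7.08 against 6.87, 6.71 and 6.81 in the controls. Since all 3 controls were below the detection limit, the difference is a bound of at least 1.04-fold with no error attached. The treated array that read 6.92 was itself below that limit, so a rise is not established. A brighter VEGFA probe, detected on 23 arrays, gave log2 fold changes of 0.34 for KM-H2 (SE 0.09, adjusted p = 0.0053), 0.30 for L-540 (SE 0.09, adjusted p = 0.0068), 0.12 for L-428 and 0.07 for SUP-HD1, none of which reached 0.4. Its L-540 controls read 7.45, 7.29 and 7.27 and treated arrays 7.63, 7.58 and 7.70, and its KM-H2 controls 7.26, 7.23 and 7.22 and treated arrays 7.51, 7.67 and 7.57, so the groups were apart in both lines. With normexp background correction the L-540 value was 0.59 and the KM-H2 value 0.71, and both met the criteria. ADM, the vasodilator peptide adrenomedullin, read between 6.65 and 6.94 and was detected on 1 array, so no change could be measured.

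BNIP3, which acts in mitophagy and cell death at the outer mitochondrial membrane, was not detected in L-540 controls and was highest in L-428. The L-540 controls read 6.71, 6.71 and 6.93 and the treated arrays 6.97, 6.69 and 6.86, of which 1 was detected, so no fold is given there. Against the L-540 background, the control level was at least 3.78-fold higher in SUP-HD1, at least 4.30-fold higher in KM-H2 and at least 8.42-fold higher in L-428.

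BNIP3 fell with AEZS-136 in L-428 alone. Its L-428 controls read 10.03, 9.92 and 10.15 and treated arrays 9.37, 9.65 and 9.49, a 1.44-fold fall without overlap (log2 -0.53, SE 0.10, adjusted p = 0.00016, limma), and -0.52 without the array of low mean signal. SUP-HD1 read 8.75, 8.95 and 8.93 and then 8.81, 8.83 and 9.08 (0.03, 95% interval -0.17 to 0.23). KM-H2 read 9.09, 8.95 and 9.16 and then 9.09, 9.14 and 9.34 (0.13, -0.08 to 0.33). The response of L-428 was lower than that of SUP-HD1 by 0.56 (adjusted p = 0.0086) and than that of KM-H2 by 0.65 (adjusted p = 0.0022). The difference from L-540 compares with a line in which the probe was at background.

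NDRG1, a gene induced by hypoxia and other stress, was expressed in the sensitive lines and at the detection limit in the resistant ones. L-540 controls read 7.90, 7.74 and 7.87 and treated arrays 8.21, 7.81 and 8.01 (0.17, 95% interval -0.04 to 0.38). SUP-HD1 controls read 7.55, 7.69 and 7.54 and treated arrays 7.95, 7.62 and 8.05 (0.28, SE 0.10, adjusted p = 0.043), with overlap and under the threshold, although the value was 0.41 and past it without AEZS-136 replicate 2. KM-H2 was detected on 3 control arrays (6.94, 6.98 and 6.94) and on 0 treated ones (6.86, 6.79 and 6.90). The difference is a bound of at least 1.02-fold with no error attached. The limma value of -0.10 (95% interval -0.31 to 0.11, adjusted p = 0.59) did not meet the criteria. L-428 was detected on 1 array of each group and read between 6.71 and 6.99.

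**Figure D3:**
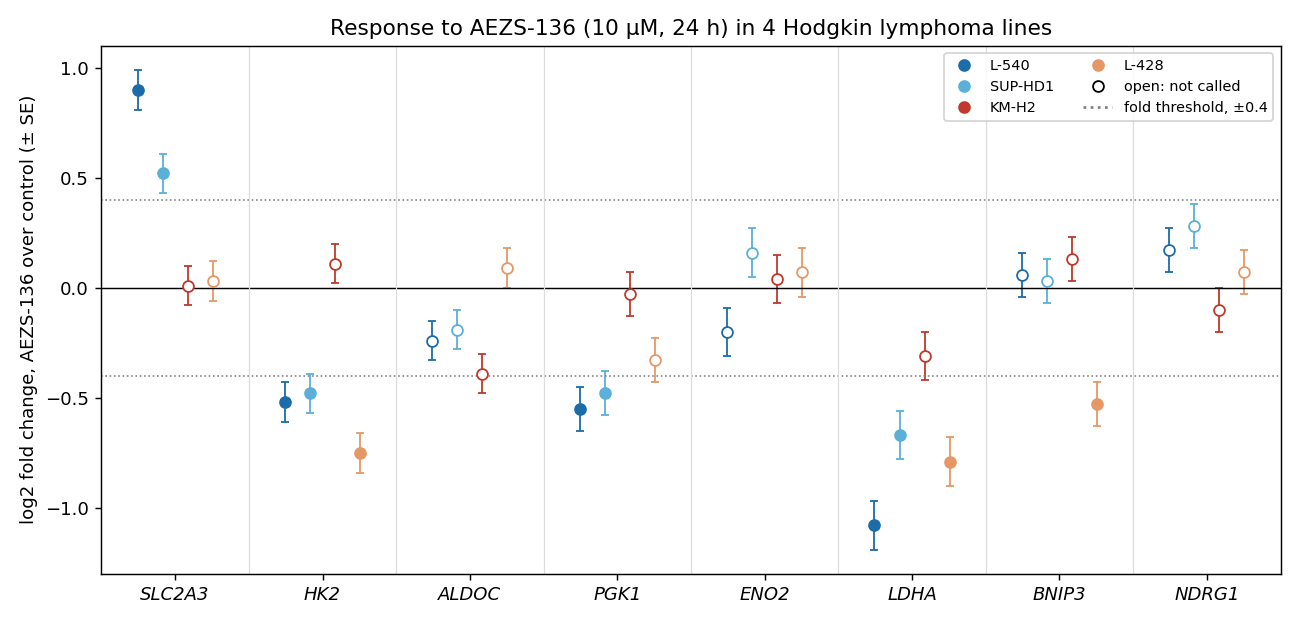
Log2 fold change of AEZS-136 over control (vertical axis, bars for SE) of the 8 tested genes (horizontal axis), colored by cell line, with filled points for values that met the criteria and dotted lines at 0.4 and -0.4. HK2 and LDHA fell in L-540, SUP-HD1 and L-428, KM-H2 had 0 filled points, and BNIP3 in L-540 and NDRG1 in KM-H2 and L-428 include arrays below the detection limit.

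Counted by line, 1 of the 8 tested genes rose and 3 fell in L-540, where 9.59% of all tested probes rose and 9.96% fell. The same counts, 1 and 3, held in SUP-HD1 (6.51% rose and 6.26% fell). In L-428, 0 rose and 3 fell, against 6.62% and 6.69% of all tested probes, and in KM-H2 0 changed, against 4.42% and 3.48%. The genes that fell were HK2, PGK1 and LDHA in both sensitive lines and HK2, LDHA and BNIP3 in L-428. These counts use the chosen probe of each gene, and the second PGK1 probe also fell in L-428 and KM-H2. The second HK2 probe, in contrast, met the criteria in no line. Of the other LDHA probes, the brighter met them in the same lines as the chosen probe and the dimmest in none. By the methods' t-test, within SUP-HD1 alone, HK2 (adjusted p = 0.067), PGK1 (adjusted p = 0.089) and LDHA (adjusted p = 0.082) no longer met the criteria, nor did BNIP3 in L-428 (adjusted p = 0.061).

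Averaged over the 4 lines, 2 of the 8 genes fell, LDHA (log2 -0.71, SE 0.05, adjusted p = 2.5e-11, limma) and HK2 (-0.41, SE 0.05, adjusted p = 4.3e-08), and 0 rose, against 4.81% and 4.67% of all tested probes. HK2 lay close to the threshold, at between -0.43 and -0.38 when single arrays were left out. It was -0.39 with the deposited value table, and the second HK2 probe averaged -0.12, neither of which reached the threshold. SLC2A3 averaged 0.37 and PGK1 -0.35, neither of which reached 0.4. The second PGK1 probe, however, averaged -0.78 (adjusted p = 2.8e-12, limma) and met the criteria.

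The response differed among the 4 lines for 6 of the 8 tested genes, SLC2A3, HK2, ALDOC, PGK1, LDHA and BNIP3 (limma F test, adjusted p between 1.1e-05 and 0.023), against 27.2% of all tested probes. With normexp background correction 3 genes differed. ENO2 (adjusted p = 0.25) and NDRG1 (adjusted p = 0.17) did not meet the criteria. For pairs of lines, a different response was found for SLC2A3, HK2 and PGK1 between SUP-HD1 and KM-H2 (10% of all tested probes), and for SLC2A3, HK2, PGK1 and LDHA between L-540 and KM-H2 (14.3%). The responses of L-428 and L-540 differed for SLC2A3 and BNIP3 (12.8%), as did those of L-428 and SUP-HD1 (8.35%). In L-540 the BNIP3 probe was at background, so no response could be measured there. That line enters both the BNIP3 F test and the BNIP3 difference of L-428 from L-540. Those of L-428 and KM-H2 differed for HK2, ALDOC, LDHA and BNIP3 (8.85%). With the second probes, KM-H2 did not differ by the criteria from L-540 and L-428 in HK2. Nor did it from L-540 and SUP-HD1 in PGK1, or from L-428 in LDHA. No gene met the criteria between SUP-HD1 and L-540, where 12% of all tested probes did, and the nearest were SLC2A3 (adjusted p = 0.054) and LDHA (adjusted p = 0.069).

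A wider list of 21 other genes of glycolysis and lactate metabolism, of which 18 were tested, moved mainly downward. This list and the hypoxia list below were chosen with earlier results of these data known, so the counts describe the listed genes only. In SUP-HD1, 1 rose and 10 fell, in L-540 1 rose and 9 fell, in L-428 1 rose and 6 fell, and in KM-H2 0 rose and 5 fell. PGAM1 and PGAM4, which fell in every line, are counted as separate genes, although the PGAM4 probe may read both. Among all tested probes, the share that fell was 6.26% in SUP-HD1, 9.96% in L-540, 6.69% in L-428 and 3.48% in KM-H2, and the share that rose 6.51%, 9.59%, 6.62% and 4.42%. The list's median log2 fold change was -0.44, -0.41, -0.28 and -0.09 in that order, where that of all tested probes was between -0.01 and 0.01. Each gene was represented by its brightest probe, and other probes of ALDOA, TPI1, PKM and PFKFB3 gave a different call in some lines. In KM-H2 another ALDOA probe rose by 0.47 where the brightest gave -0.08.

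GPI, which turns glucose 6-phosphate into fructose 6-phosphate, fell in every line, with log2 fold changes of -0.90 in L-428, -0.89 in L-540, -0.75 in SUP-HD1 and -0.53 in KM-H2 (SE 0.09 in each). PGAM1, the phosphoglycerate mutase that acts between PGK1 and enolase, also fell in every line, with -0.56, -0.98, -0.78 and -0.61 in the same order (SE 0.10 in each). PGAM4, a near-identical copy of PGAM1 whose probe may read both, gave -0.73, -0.91, -0.73 and -0.43. KM-H2 thus showed falls in GPI and PGAM1 while 0 of the 8 tested genes met the criteria there with the chosen probes. The second PGK1 probe did fall in KM-H2 (-0.65).

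ENO3, the muscle enolase, went opposite ways in different lines, unlike ENO2. It rose by 0.46 in SUP-HD1 and 0.40 in L-540, fell by 0.52 in KM-H2 and was -0.31 in L-428, the last below the threshold. The response differed between the classes (-0.85, SE 0.10, adjusted p = 4.5e-07, limma). A second probe of ENO3 did not meet the criteria in L-540 and SUP-HD1 and fell in KM-H2. Its response also differed between the classes (-0.58, SE 0.08, adjusted p = 2e-05, limma). As for SLC2A3, the class and the identity of the lines cannot be told apart.

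**Figure D4:**
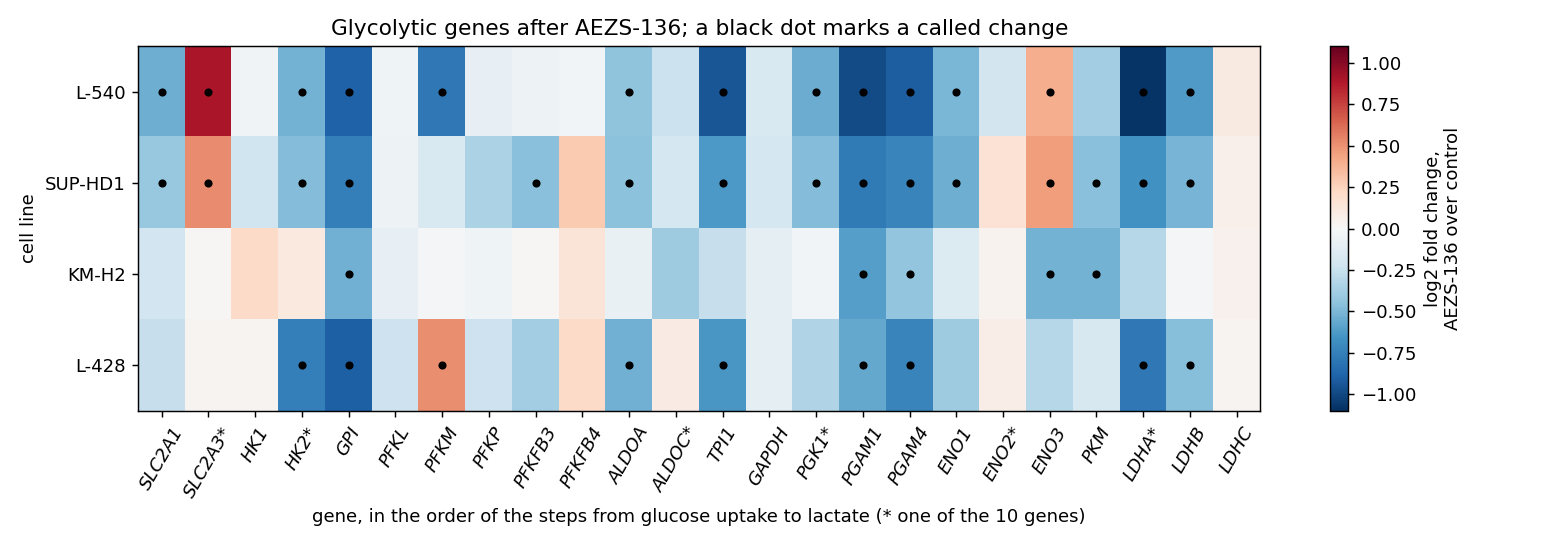
Log2 fold change of AEZS-136 over control (color, blue for lower and red for higher) of 24 tested glycolytic genes (horizontal axis, in the order of the steps from uptake to lactate, with an asterisk for the 6 described above) in the 4 cell lines (vertical axis), with a black dot where the criteria were met. GPI, PGAM1 and PGAM4 carry a dot in all 4 lines, and SLC2A3 is the darkest red, at 0.90 in L-540.

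A list of other genes linked to hypoxia, which holds HIF subunits and regulators such as HIF1A, EPAS1 and VHL beside HIF targets, was near 0 at its median. Of 35 listed, 26 were tested, and 4 rose and 4 fell in L-428, 4 rose and 2 fell in L-540, 3 rose and 3 fell in SUP-HD1 and 1 rose and 2 fell in KM-H2. Among all tested probes, 6.62% rose and 6.69% fell in L-428, 9.59% and 9.96% in L-540, 6.51% and 6.26% in SUP-HD1 and 4.42% and 3.48% in KM-H2. The listed genes' median log2 fold change was 0.03, 0.07, 0.03 and -0.06 in that order. These counts use the brightest probe of each gene, and other probes of BNIP3L, P4HA2, PDK3 and WSB1 gave a different call in some lines. DDIT4 (REDD1), a stress-induced inhibitor of mTOR complex signaling, rose in all 4 lines, by 2.31 in L-428, 1.40 in L-540, 0.97 in SUP-HD1 and 0.85 in KM-H2 (SE 0.11 in each, adjusted p between 8.2e-15 and 1.3e-06, limma). MIF, a cytokine, fell in all 4, with log2 fold changes of -0.77 in KM-H2, -0.65 in L-540, -0.57 in SUP-HD1 and -0.48 in L-428 (SE 0.15 in each). For these genes, as for the 10, whether HIF itself had a part in any change was not tested.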

How the data were processed

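The 24 arrays were grouped by the line, treatment and replicate number in the labels, and the dose, vehicle and classes were taken from the study's text. The authors deposited signal intensity for 47323 probes, on a linear scale before any normalization. Beside each lies a detection value, a fraction that approaches 1 for bright probes, so 1 minus it was taken as the detection p. BeadStudio is named in the submitters' processing notes, and its version is not given in the sources used here. A value table of log2 signals, deposited by the authors and used as an alternative, ranked each array like its own signals (24 of 24) and had column medians near 6.79. The study's methods describe robust spline normalization with lumi.

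Signals were log2-transformed without background correction, quantile-normalized over 24 arrays and fitted in limma 3.58.1 (R 4.3.3) as 8 group means with 16 residual and 8.94 prior degrees of freedom. Adjusted p-values are Benjamini-Hochberg values over 20027 tested probes, and the thresholds are those of the methods. The median SE of a log2 fold change was 0.085, and the number of arrays limits the precision: an exact test of 3 arrays against 3 cannot give a p below 0.1. The class contrast subtracted the mean response of the sensitive lines from that of the resistant lines. A group with 0 detected arrays gives only a bound, set against the higher of its own signal and the lowest detected signal on each array. Probe names came from the platform annotation (30113 probes with 1 symbol, 8 with several, 17202 unnamed), updated through gene identifiers to RefSeq. All 10 genes were named, and of the other listed genes the at most 4 with the largest mean response in each direction among those changed in at least 3 lines. The genes and lists were chosen with earlier results of these data known. The fit was tested on simulated data. Alternatives were other normalizations, normexp, filters, a replicate block, the methods' t-test, fits of 1 line, and leaving out each array. Figures used matplotlib.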

Additional observations from a re-analysis of the deposited data

Results flagged for a closer look

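The response to AEZS-136 differed among the 4 lines for 6 genes by the limma F test (adjusted p under 0.05 over all tested probes), and the range between the highest and the lowest of the 4 log2 fold changes was 0.88 for SLC2A3, 0.87 for HK2, 0.48 for ALDOC, 0.52 for PGK1, 0.78 for LDHA and 0.65 for BNIP3. When each of the 24 arrays was left out in turn, ALDOC and PGK1 each met the criteria in 22 of the 24 fits and the other 4 in all 24. BNIP3 was at background in L-540, and its range lay between KM-H2 and L-428. The PGK1 difference was seen with 1 of its 2 probes. The second probe fell in every line.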

How the results depend on the processing

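No value of the 8 tested genes changed direction past the threshold under any alternative that was run. In KM-H2, where 0 genes changed with the chosen probes, the count was 1 with quantile normalization within each line (ALDOC). It was 1 with the authors' value table (ALDOC) and 2 with no minimum fold change. On average over the lines the count of 2 became 1 with the value table, where HK2 was lost at -0.39, and 5 with no minimum fold change. The 6 genes whose response differed among the lines became 3 with normexp, the 1 that differed between classes became 3 with no minimum fold change, and the 4 changed in SUP-HD1 became 1 with the methods' t-test. Leaving out single arrays gave 4 to 4 genes in L-540, 3 to 5 in SUP-HD1, 0 to 1 in KM-H2, 3 to 4 in L-428, 1 to 2 on average, 5 to 7 for differences among the lines, 1 to 1 between classes and 8 to 8 for the controls. Single genes kept their call in 498 values, lost it in 5 and gained it in 9, among them ALDOC in L-540 with normexp (-0.46) and PGK1 in L-428 with median scaling (-0.42). Median scaling put 73.9% of all calls in KM-H2 on the higher side, against 55.9%. With the replicate number as a block the counts were 4 in both sensitive lines, 0 in KM-H2, 3 in L-428, 2 on average, 6 for differences among the lines, 1 between classes and 8 for the controls, as without it. The numbers were not taken as pairs, since same-numbered arrays correlated between -0.20 and 0.15 and 5 of 12 control arrays correlated best with their own number. Signal near background limits VEGFA and ADM in all lines, BNIP3 in L-540 and NDRG1 in KM-H2 and L-428. The causes were not tested.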
